A study of Rattus norvegicus with 30 samples.

Results

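A set of 10 genes was chosen by name for their part in bone morphogenetic protein (BMP) signalling outside the cell. They are the ligands Bmp2, Bmp4 and Bmp6, the secreted binding proteins Mgp, Bmper, Chrdl1, Fst, Grem1 and Twsg1, and the membrane decoy Bambi. All 10 were found by gene name among 30562 rows of the table, each with 1 row, and all 10 passed the filter on low counts, which left 16171 genes. They were measured by RNA sequencing in CD31-positive lung cells of wild-type rats, collected 3 weeks after sham surgery or after a Glenn operation, which joins a caval vein to the pulmonary artery so that blood reaches the lung without first passing the liver. After surgery the animals ate a vitamin A control diet, a vitamin A deficient diet or a vitamin A excess diet. This gave 6 groups (sham control, Glenn control, sham deficient, Glenn deficient, sham excess and Glenn excess) of 5 libraries each. The labels do not say that each library came from its own animal, so p-values measure the spread between these libraries. The cells were enriched with beads and not purified to a single type, and no age is given in the labels used here.

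BMPs are secreted dimers that bind pairs of type I and type II receptor kinases, which then phosphorylate SMAD1, SMAD5 and SMAD9 and switch on genes such as the Id family. In vessels the receptor pair of ALK1 (Acvrl1) and BMPR2, with endoglin (Eng), responds mainly to BMP9 and BMP10 from liver and heart, while BMP2, BMP4 and BMP6 are made locally and act mostly through other type I receptors. Secreted antagonists hold these ligands away from their receptors, and loss of matrix Gla protein (Mgp), which binds BMPs and blocks calcification, leads to arteriovenous malformations in mice.

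Libraries held between 22 and 77.6 M estimated counts. The defining endothelial genes Pecam1 and Cdh5 were abundant in every library, at 863 to 1730 and 1560 to 2930 CPM (counts per M counts, scaled by TMM). RNA of other cells was abundant too. The 7 type 2 alveolar markers summed to 37100 to 63600 CPM after sham and 26200 to 59700 CPM after Glenn surgery. The 9 leukocyte markers summed to 13000 to 24500 and 8050 to 18900 CPM, and 8 endothelial markers to 8250 to 10300 and 6140 to 8610 CPM. Libraries differed in 3 further ways. Library names fall in 2 number ranges, called here series A (22 libraries) and series B (8), and the groups sham control, Glenn control and sham excess hold series A only. The major histocompatibility gene RT1-CE16 was low in 17 libraries (21.9 to 44.4 CPM) and high in 13 (407 to 949 CPM), a split made from the data, and all 8 series B libraries and 0 of the 5 sham excess libraries were high. The Y-linked gene Ddx3y alone was used to mark 13 libraries as male, with 2 or 3 in each group. A gene is called changed where the adjusted p of edgeR's quasi-likelihood test, fitted over all genes with the series as a term, was under 0.05. CPM values are not divided by gene length, so levels are compared between libraries and not between genes.

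With Glenn surgery 2 of the 3 ligands fell and none rose, while antagonists moved in both directions. Averaged over the 3 diets, 7 of the 10 genes changed, where 48.2% of all genes tested changed. Mgp, Bmper and Twsg1 rose (23.4% of all genes rose), and Bmp6, Bmp2, Fst and Bambi fell (24.7% of all genes fell). The median log2 change of the 10 genes was -0.21 against -0.013 for all genes, and the median size of a change was 0.66 against 0.22. On the control diet 4 of 10 changed (24.9% of all genes), on the deficient diet 4 of 10 (27.4%) and on the excess diet 5 of 10 (21.9%). Mgp, Bmp6 and Fst changed in the same direction on all 3 diets, as did 13.5% of all genes. In bulk libraries, fewer cells of a type and less RNA per cell cannot be told apart.

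**Figure D1:**
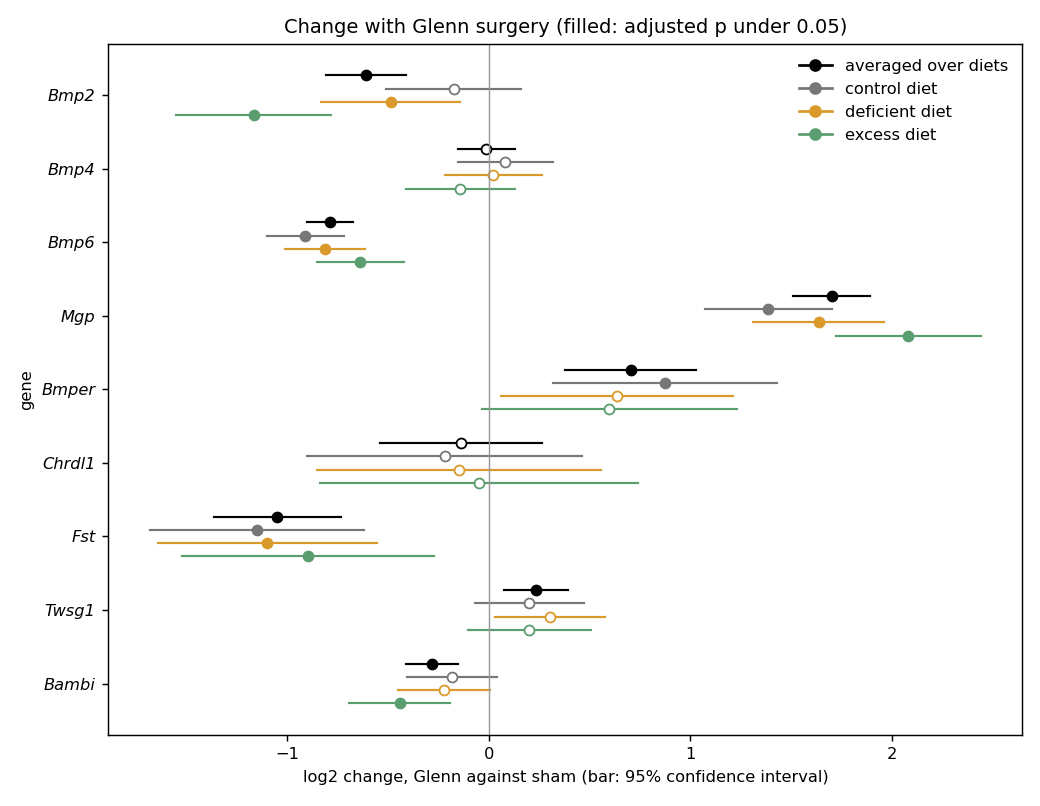
Fitted log2 change of 9 genes with Glenn surgery (x axis) by gene (y axis), with 95% confidence intervals, averaged over diets and on each diet; filled points have an adjusted p under 0.05. Grem1 is left out because its counts are too low for a readable interval. Mgp lies to the right on every diet, Bmp6 and Fst to the left, and Bmp4 and Chrdl1 span 0 throughout.

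Among the ligands, Bmp6, which in the liver comes from endothelial cells and controls iron through hepcidin, fell on every diet. On the control diet its sham libraries were at 376, 450, 449, 397 and 398 CPM and its Glenn libraries at 203, 247, 207, 224 and 221 CPM. On the deficient diet the sham libraries were at 382, 387, 279, 332 and 351 CPM and the Glenn libraries at 237, 204, 214, 207 and 168 CPM. Every Glenn library lay below every sham library on both diets. On the excess diet sham libraries were at 348, 386, 436, 387 and 429 CPM and Glenn libraries at 298, 241, 168, 241 and 189 CPM, again with no overlap. The log2 change was -0.91 (SE 0.09), -0.81 (SE 0.10) and -0.64 (SE 0.11) on the control, deficient and excess diets, with edgeR adjusted p of 1.45e-08, 1.38e-07 and 3.59e-05. Groups did not overlap for 17.2%, 19.6% and 16.3% of all genes on these diets. Averaged over diets, Bmp6 went from 386 ± 46.1 to 218 ± 33.0 CPM (SD over 15 libraries each). Its fitted log2 change was -0.79 with an SE of 0.06 (edgeR adjusted p 9.57e-13). Series B libraries were lower in Bmp6 than series A libraries by a fitted log2 difference of -0.31 (SE 0.08, edgeR adjusted p 0.0377, where 1.64% of all genes differed). Within series A and within either RT1-CE16 level, Bmp6 still fell on each diet that could be compared, and its log2 change over all alternatives on any diet stayed between -0.95 and -0.55.

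Bmp2, a ligand of bone and vessel development, was low and had its largest fitted fall on the excess diet. The 5 sham excess libraries were at 26.8, 19.4, 19.6, 20.3 and 21.3 CPM and the Glenn excess libraries at 6.61, 12.3, 13.1, 15 and 11.2 CPM. These 2 groups did not overlap, as for 16.3% of all genes, and the log2 change was -1.16 (SE 0.19, edgeR adjusted p 2.44e-05). On the deficient diet sham libraries were at 14.3, 12.7, 15, 22.3 and 18.6 CPM and Glenn libraries at 8.07, 10.8, 11.0, 12.2 and 13.5 CPM, which overlap (-0.49, SE 0.17, edgeR adjusted p 0.0295). The call on the deficient diet did not hold in series A alone (-0.43, edgeR adjusted p 0.276), among RT1-CE16-low (-0.44, 0.247) or RT1-CE16-high libraries (-0.54, 0.0788) or with library totals alone (-0.395, 0.0861). Nor did it hold without any 1 of sham deficient replicates 1 and 4 and Glenn deficient replicates 1, 4 and 5 (-0.50 to -0.41, edgeR adjusted p 0.0532 to 0.0814). On the control diet the sham libraries were at 17.7, 17.3, 12.7, 10.9 and 12.6 CPM and the Glenn libraries at 9.51, 14.3, 15, 14.1 and 10.2 CPM. The control groups were interleaved, and Bmp2 did not pass the threshold there (-0.17, SE 0.16, 95% interval -0.51 to 0.16, edgeR adjusted p 0.486). Averaged over diets Bmp2 went from 17.4 ± 4.41 to 11.8 ± 2.5 CPM (SD over 15 libraries each), which the fit put at -0.61 on the log2 scale (SE 0.10, edgeR adjusted p 5.48e-06).

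Bmp4, the ligand closest to Bmp2 in sequence, did not pass the threshold on any diet. Its libraries ranged from 108 to 171 CPM after sham (median 143) and from 112 to 178 CPM after Glenn surgery (median 137). The averaged log2 change was -0.011 (SE 0.07, edgeR adjusted p 0.91), and its 95% interval of -0.15 to 0.13 leaves room for small changes only. On the control, deficient and excess diets the log2 changes were 0.08, 0.02 and -0.14, with intervals between -0.41 and 0.32.

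**Figure D2:**
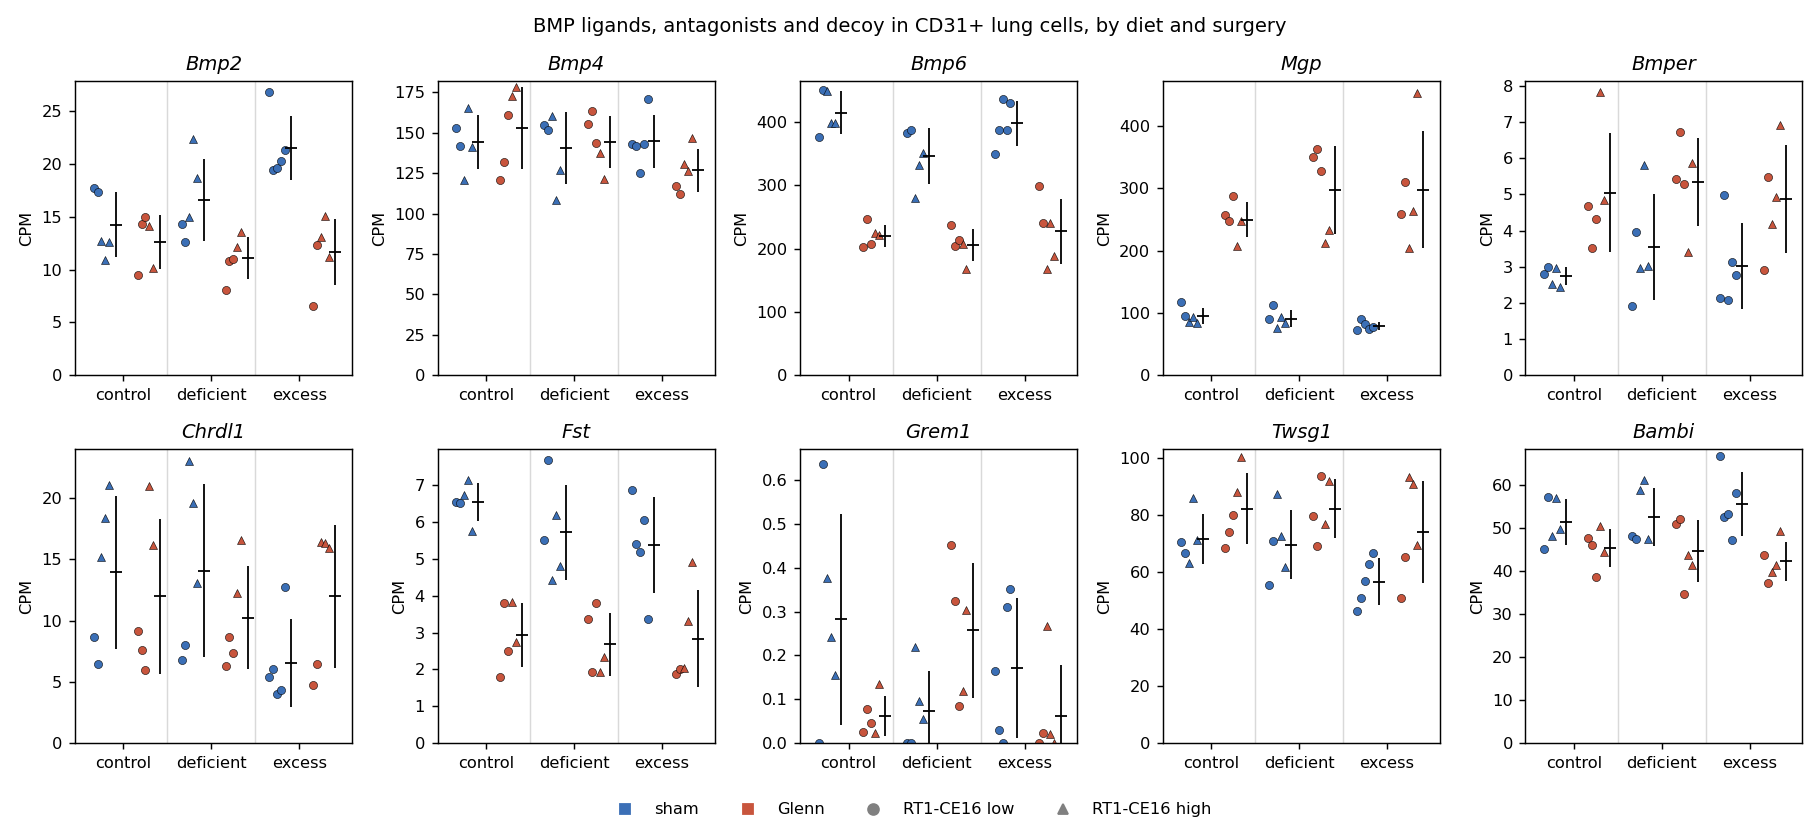
Level of each of the 10 genes in CPM (y axis, from 0) in the 6 groups (x axis, by diet), 1 point per library, with the mean and SD of 5 libraries as a cross and bar beside them; triangles mark libraries with high RT1-CE16. Sham and Glenn points separate in Mgp and Bmp6 on every diet, and in Chrdl1 the triangles lie above the circles instead, apart from 1 circle at 12.8 CPM; SD bars are clipped at 0.

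Of the 3 genes among the 10 that rose averaged over diets, Mgp had the largest log2 change. On the control diet sham libraries were at 117, 95.9, 86.4, 93.8 and 84.2 CPM and Glenn libraries at 258, 248, 287, 208 and 247 CPM. On the deficient diet sham libraries were at 91.2, 112, 75.5, 92.9 and 83.4 CPM and Glenn libraries at 350, 363, 328, 211 and 233 CPM. All 15 Glenn libraries (204 to 453 CPM) were above all 15 sham libraries (73.2 to 117 CPM), a separation that 5.83% of all genes showed. On the excess diet sham libraries were at 73.2, 89.6, 82.1, 74.1 and 78 CPM and Glenn libraries at 259, 310, 204, 264 and 453 CPM. The log2 change was 1.38 (SE 0.16), 1.64 (SE 0.16) and 2.08 (SE 0.18) on the control, deficient and excess diets, with edgeR adjusted p of 7.63e-08, 7.31e-09 and 1.03e-09. Averaged over diets it was 1.70 (SE 0.09, edgeR adjusted p 6.98e-15), a 3.25-fold rise from 88.7 ± 12.9 to 281 ± 68.7 CPM (SD, n = 15 each). Among the alternatives run for the averaged contrast, the value stayed between 1.63 and 1.77.

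Mgp is made by smooth muscle cells and fibroblasts as well as by endothelial cells, and markers of those cells moved with it. Of 12 mural markers, which mark smooth muscle cells and pericytes, 11 were in the table and all 11 rose averaged over diets (median log2 change 1.52). Their summed level ranged from 184 to 381 CPM after sham and from 556 to 1850 CPM after Glenn surgery, with no overlap and no marker at 0 throughout a group. Acta2 went from 31.4 to 126 CPM, Myh11 from 57.8 to 230 CPM and Cnn1 from 3.77 to 17.2 CPM (means, n = 15 each). Of 10 fibroblast markers 9 rose (median log2 change 0.72), and their sums overlapped, at 1290 to 3280 CPM after sham and 1830 to 4730 CPM after Glenn surgery. Their part in the rise of Mgp was not tested. Of all genes tested, 23.4% rose and 24.7% fell in this contrast, shares to be set beside the marker counts. Of the other marker lists, all 7 lymphatic markers rose (sums 1100 to 2020 against 2490 to 5120 CPM), while of 9 arterial markers 6 rose and 3 fell, and of 6 type 1 alveolar markers 4 rose and 2 fell. All 7 type 2 alveolar markers fell, of 7 venous markers 5 fell and 1 rose, of 6 general capillary markers 5 fell and 0 rose, and of 6 aerocyte markers 3 fell and 2 rose. The general capillary list had 3 calls rather than 5 in series A alone and among RT1-CE16-low libraries. Of 8 endothelial markers 4 fell and 3 rose, and of 6 tested leukocyte markers 2 fell and 0 rose. The 5 mesothelial markers had a median log2 change of -0.069. Of 3 erythroid markers 2 rose, a count that ran from 1 to 3 when 1 library was left out and differed from 2 in 19 of 30 such fits.

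**Figure D3:**
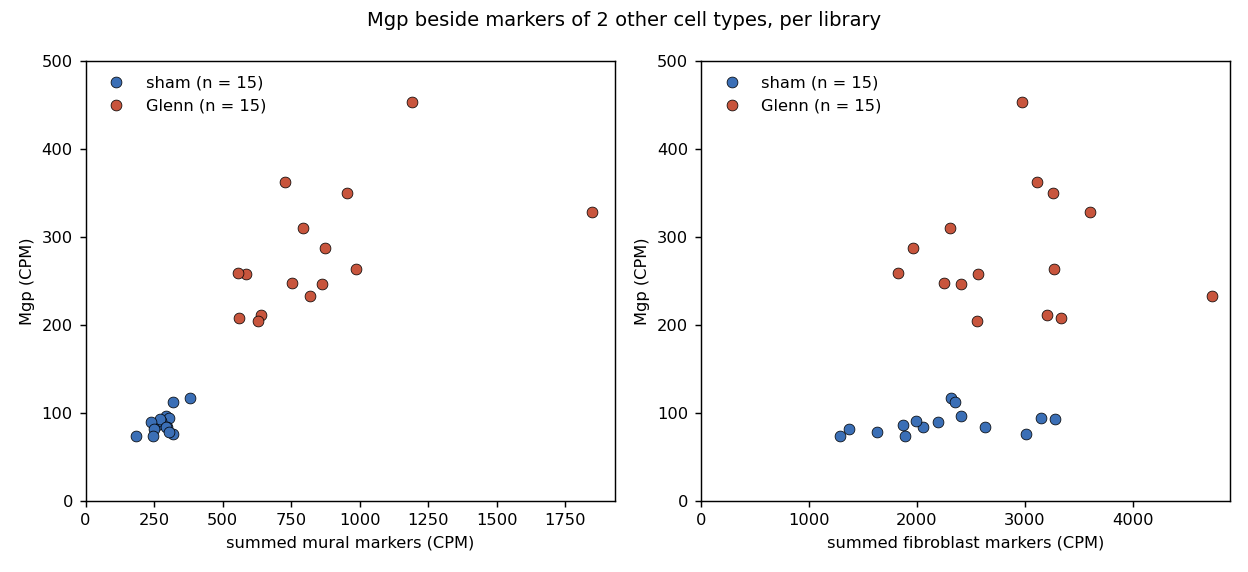
Mgp (y axis, CPM) against the summed level of mural markers (left) and of fibroblast markers (right; x axes, CPM), 1 point per library, 15 sham and 15 Glenn. Glenn libraries lie at 204 CPM of Mgp and 556 CPM of mural markers or more, apart from the sham libraries, while the fibroblast sums of both surgeries share a range.

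Fst encodes follistatin, which binds activins tightly and some BMPs more weakly, and it fell on all diets. Sham control libraries were at 6.53, 6.5, 6.74, 7.14 and 5.75 CPM and Glenn control libraries at 1.81, 3.80, 2.51, 3.83 and 2.74 CPM. On the deficient diet sham libraries were at 5.51, 7.67, 4.43, 6.18 and 4.79 CPM and Glenn libraries at 3.38, 1.93, 3.79, 1.94 and 2.35 CPM. Neither pair overlapped, as for 17.2% and 19.6% of all genes. Fst fell by 1.15 (SE 0.26) and by 1.10 (SE 0.27) on the log2 scale, with edgeR adjusted p of 0.00124 and 0.00226. On the excess diet sham libraries were at 6.86, 5.39, 5.18, 6.04 and 3.36 CPM and Glenn libraries at 1.89, 2.01, 2.05, 3.32 and 4.92 CPM. These overlapped through sham excess replicate 5 and Glenn excess replicate 5 (-0.90, SE 0.31, edgeR adjusted p 0.034). That call did not hold with library totals alone (-0.85, edgeR adjusted p 0.0525) or without any 1 of sham excess replicates 1 and 4 and Glenn excess replicates 1, 2 and 3 (-0.85 to -0.66, edgeR adjusted p 0.0542 to 0.178). On the control diet it did not hold among RT1-CE16-high libraries (-0.98, edgeR adjusted p 0.0519). Averaged over diets Fst fell by 1.05 on the log2 scale (SE 0.15, edgeR adjusted p 1.75e-06), from 5.87 ± 1.13 to 2.82 ± 0.962 CPM (SD, n = 15 each).

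Bmper, the vertebrate form of crossveinless, binds BMPs and can restrain or aid them depending on dose, and was first found in endothelial precursors. Sham control libraries were at 2.80, 2.99, 2.53, 2.96 and 2.45 CPM and Glenn control libraries at 4.69, 3.53, 4.32, 7.83 and 4.86 CPM. The groups did not overlap, as for 17.2% of all genes (log2 change 0.87, SE 0.27, edgeR adjusted p 0.0177). The call did not hold without Glenn control replicate 4, the highest library (0.69, edgeR adjusted p 0.0699), nor among the libraries with low RT1-CE16 (0.54, edgeR adjusted p 0.461). On the deficient diet sham libraries were at 1.91, 3.96, 2.98, 5.82 and 3.03 CPM and Glenn libraries at 5.43, 6.73, 5.28, 3.40 and 5.86 CPM. On the excess diet sham libraries were at 2.15, 4.97, 2.07, 3.15 and 2.78 CPM and Glenn libraries at 2.91, 5.47, 4.19, 4.93 and 6.93 CPM. Both diets gave positive log2 changes (0.64, SE 0.28, and 0.60, SE 0.31) that stayed short of the threshold (edgeR adjusted p 0.0936 and 0.176). They passed without sham deficient replicate 4 (0.0247), without Glenn deficient replicate 4 (0.0326) and without sham excess replicate 2 (0.0458). Averaged over diets Bmper rose from 3.10 ± 1.07 to 5.09 ± 1.37 CPM (SD over 15 libraries each), or by 0.70 on the log2 scale (SE 0.16, edgeR adjusted p 0.000521), and this call held in all 41 alternatives run.

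Twsg1 and Bambi changed little. Twsg1, twisted gastrulation, helps chordin-type proteins hold BMPs and also helps release them. Its libraries ranged from 46.3 to 87.3 CPM after sham (median 66.6) and from 50.9 to 101 CPM after Glenn surgery (median 79.7). The averaged log2 change was 0.24 (SE 0.08, edgeR adjusted p 0.0132), and on each diet alone Twsg1 did not pass the threshold (log2 changes 0.20 to 0.30, edgeR adjusted p 0.094 to 0.376). It passed on the deficient diet with limma voom (0.32, adjusted p 0.0483), with library totals alone (0.40, edgeR adjusted p 0.0396) and without Glenn deficient replicate 4 (0.39, edgeR adjusted p 0.0467), and on the excess diet with no series term (0.38, edgeR adjusted p 0.0474). The averaged call did not hold in series A alone (0.21, edgeR adjusted p 0.0759) nor with RT1-CE16-low libraries (0.18, edgeR adjusted p 0.152). Bambi, a receptor-like protein that lacks a kinase and so blocks BMP and TGF-beta receptors, ranged from 45.1 to 66.7 CPM after sham (median 52.6) and from 34.6 to 52.0 CPM after Glenn surgery (median 43.8). It fell by 0.28 on the log2 scale averaged over diets (SE 0.06, edgeR adjusted p 0.000571) and by 0.44 on the excess diet (SE 0.12, edgeR adjusted p 0.00927). Among RT1-CE16-low libraries neither passed (-0.24 and -0.45, edgeR adjusted p 0.0656 and 0.074), and the excess diet did not pass without Glenn excess replicate 2 (-0.39, edgeR adjusted p 0.0529).

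RefSeq promoter entries (GRCr8, the 250 bases before a start site and the 50 after it) matched 7 of the 10 genes: Bmp4, Bmp6, Bmper, Grem1, Chrdl1, Bambi and Twsg1. The deposited counts rest on another build, mRatBN7.2, so these windows serve only to show sequence. The 4 shown are those of the genes that changed, Bmp6 and Bambi, which fell, and Bmper and Twsg1, which rose. Capitals mark GGCGCC, a GC-rich SMAD1/5 motif that reads the same on both strands, and CAGAC or its complement GTCTG, a SMAD-binding core.
Bmp6, chr17:26675212-26675511, minus strand: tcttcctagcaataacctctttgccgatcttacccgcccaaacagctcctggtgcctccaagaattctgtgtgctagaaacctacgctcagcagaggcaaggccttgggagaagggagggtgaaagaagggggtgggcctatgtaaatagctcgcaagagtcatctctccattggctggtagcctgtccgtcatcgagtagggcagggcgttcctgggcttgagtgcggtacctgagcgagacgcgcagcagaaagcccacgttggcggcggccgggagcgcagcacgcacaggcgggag
Bambi, chr17:58820954-58821253, minus strand: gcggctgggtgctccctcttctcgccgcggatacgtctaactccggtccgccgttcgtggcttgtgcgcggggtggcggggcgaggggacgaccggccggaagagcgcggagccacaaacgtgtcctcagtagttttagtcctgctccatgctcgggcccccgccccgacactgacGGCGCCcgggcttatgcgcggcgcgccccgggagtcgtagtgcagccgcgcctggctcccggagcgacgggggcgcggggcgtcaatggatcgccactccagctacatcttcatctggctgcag
Bmper, chr8:30007916-30008215, plus strand: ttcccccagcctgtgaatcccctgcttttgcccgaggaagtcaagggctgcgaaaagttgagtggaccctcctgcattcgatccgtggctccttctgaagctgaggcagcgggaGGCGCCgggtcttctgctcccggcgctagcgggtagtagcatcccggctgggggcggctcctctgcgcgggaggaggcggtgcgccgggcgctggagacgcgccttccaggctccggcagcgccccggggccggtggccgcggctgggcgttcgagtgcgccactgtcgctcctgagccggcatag
Twsg1, chr9:113014266-113014565, minus strand: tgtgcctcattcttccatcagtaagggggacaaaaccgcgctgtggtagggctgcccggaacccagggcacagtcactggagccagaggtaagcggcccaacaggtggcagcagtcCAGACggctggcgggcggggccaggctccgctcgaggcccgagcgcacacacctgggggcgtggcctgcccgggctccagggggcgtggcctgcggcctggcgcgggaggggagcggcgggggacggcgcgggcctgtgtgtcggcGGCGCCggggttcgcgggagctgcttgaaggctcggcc
GGCGCC occurs 1 time in each of the Bambi, Bmper and Twsg1 windows and 0 times in that of Bmp6. It is present in 11.0% of all 33469 promoter windows, and it also occurs in the window of Grem1. CAGAC, found in 50.1% of all windows, occurs in that of Twsg1 and not in the other 3. The windows with GGCGCC include a gene that fell and 2 that rose. They were also GC-rich, at 70.3% for Bambi, 70.0% for Bmper and 73.3% for Twsg1, against 59.3% for Bmp6.

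Chrdl1, a chordin-like antagonist that binds BMP4 in particular, did not follow surgery. The sham control libraries were at 8.65, 6.43, 15.2, 18.4 and 21.1 CPM and the Glenn control libraries at 9.17, 7.64, 5.97, 20.9 and 16.2 CPM. Each group held low and high libraries, and the averaged log2 change with surgery was -0.14 (SE 0.20, 95% interval -0.54 to 0.27, edgeR adjusted p 0.595). The level followed RT1-CE16. The 13 RT1-CE16-high libraries were at 12.2 to 23.0 CPM of Chrdl1 (median 16.5) and the 17 RT1-CE16-low libraries at 4.03 to 12.8 CPM (median 6.44). They met in a single low library, sham excess replicate 5 at 12.8 CPM, and the next highest low library was at 9.17 CPM.

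In a model that held RT1-CE16 level in place of series, Chrdl1 was 2.42-fold higher in high than in low libraries (log2 difference 1.27, SE 0.15, edgeR adjusted p 2.13e-06), and it was the only one of the 10 genes past the threshold, where 6.53% of all genes differed. With sex as a further term Twsg1 passed too (0.26, SE 0.08, edgeR adjusted p 0.0461), where 7.12% of all genes differed. This comparison was chosen after the values were seen. The difference was 1.28 in series A alone (5 high against 17 low libraries, SE 0.25, edgeR adjusted p 0.017, where 1.31% of all genes differed) and 1.28 with the series as a further term (SE 0.23, edgeR adjusted p 0.00559, where 1.05% differed). Sham libraries were at 13.1 to 23.0 CPM where RT1-CE16 was high and 4.03 to 12.8 CPM where it was low, and Glenn libraries at 12.2 to 20.9 and 4.78 to 9.17 CPM. None of the 10 genes differed past the threshold between male and female libraries in edgeR (Chrdl1: log2 difference 0.16, SE 0.13, edgeR adjusted p 0.805), where 0.0804% of all genes differed; 0 of the 10 had an unadjusted p under 0.05, and no other tool was run for sex. On the excess diet, where the 5 sham libraries were RT1-CE16-low and 3 of 5 Glenn libraries were high, the mean went from 6.53 ± 3.58 to 12.0 ± 5.86 CPM (SD, n = 5 each). The fitted log2 change with surgery there was -0.049 with the series term and 0.88 without it (edgeR adjusted p 0.95 and 0.148). What separates the 2 RT1-CE16 levels is not given in the labels.

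**Figure D4:**
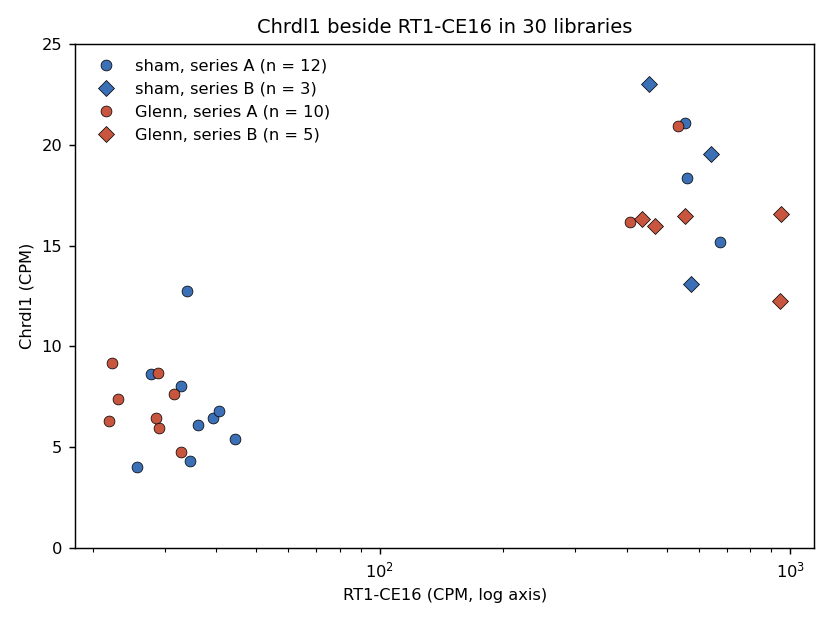
Chrdl1 (y axis, CPM) against RT1-CE16 (x axis, CPM, log axis) in 30 libraries, by surgery (colour) and library series (shape). Libraries below 44.4 CPM of RT1-CE16 hold 4.03 to 12.8 CPM of Chrdl1 and those above 407 CPM hold 12.2 to 23.0 CPM, for sham and Glenn alike.

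Grem1, gremlin, which binds BMP2 and BMP4, was close to the limit of detection. It had 0 counts in 6 of 30 libraries, at most 36 estimated counts in any library and 186 in all. The libraries of sham control held 0, 36, 13, 10 and 6 counts, those of Glenn control 1, 6, 2, 1 and 6, and those of sham deficient 0, 0, 7, 4 and 2. Those of Glenn deficient held 19, 14, 3, 5 and 7 counts, of sham excess 8, 1, 0, 12 and 12, and of Glenn excess 0, 1, 9, 1 and 0. No surgery contrast passed the threshold with edgeR (adjusted p 0.111 to 0.331), and the signs differed between diets. On the deficient diet DESeq2 gave a call (adjusted p 0.0269), and on the excess diet edgeR did without Glenn excess replicate 3 (adjusted p 0.0353).

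Diet changed none of the 10 genes by edgeR's adjusted p in any of the 6 diet contrasts. Those against the control diet share its libraries. The counts at an unadjusted p under 0.05 were 2 (deficient against control), 3 (excess against control) and 2 (excess against deficient) after sham surgery, and 3, 5 and 2 after Glenn surgery. The counts over all 16171 genes at the same unadjusted p were, in this order, 844, 1788, 854, 1598, 2254 and 837. At the adjusted threshold, 0%, 0.241%, 0.0124%, 0.00618%, 1.47% and 0% of all genes passed in the same order. DESeq2 called 2 of the 10 (Bmp2 and Chrdl1) for excess against control after sham and limma voom called 1 (Bmp2), and both called 0 in the other 5. The counts and shares of all genes above are edgeR's only. With edgeR, Chrdl1 differed by -1.10 in that contrast (SE 0.34, edgeR adjusted p 0.184). RT1-CE16, which Chrdl1 followed, was high in 3 sham control libraries and in 0 sham excess libraries. The 2 genes counted for deficient against control after sham were Grem1, with few counts, and Chrdl1. There Chrdl1 was fitted at -0.88 (SE 0.38), with means of 14.1 and 13.9 CPM. For excess against control after Glenn surgery Chrdl1 was fitted at -0.93 (SE 0.38), with both means at 12 CPM. The series term enters both fits. Series B libraries were higher in Chrdl1 by 1.27 (SE 0.29, edgeR adjusted p 0.0206), and both control groups hold series A only.

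By the smallest edgeR adjusted p, the gene nearest to a diet response was Bmp2. After sham surgery its mean was 14.2 ± 3.07 CPM on the control diet, 16.6 ± 3.88 CPM on the deficient diet and 21.5 ± 3.07 CPM on the excess diet (SD, n = 5 each). All 5 excess libraries (19.4 to 26.8 CPM) were above all 5 control libraries (10.9 to 17.7 CPM), as for 2.19% of all genes. The log2 difference of excess against control was 0.59 (SE 0.16, 95% interval 0.26 to 0.93, edgeR adjusted p 0.122; DESeq2 adjusted p 0.0419; limma voom adjusted p 0.0254). Among RT1-CE16-low libraries, where the 2 control libraries were the highest of their group, it was 0.29 (edgeR adjusted p 0.966). After Glenn surgery the means were 12.6 ± 2.56, 11.1 ± 2.01 and 11.6 ± 3.14 CPM in the same order (SD, n = 5 each).

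The interaction of surgery with diet called 0 of the 10 genes by edgeR, DESeq2 and limma voom, with 3 at an unadjusted p under 0.05 by each tool (edgeR: Bmp2, Mgp and Grem1). Over all 16171 genes, 925 had an unadjusted p under 0.05 by edgeR and 0.00618% passed the adjusted threshold. The fitted log2 change of Bmp2 on the excess diet minus that on the control diet was -0.99 (SE 0.25, 95% interval -1.5 to -0.49). This difference did not pass with edgeR (adjusted p 0.172, where 0.0186% of all genes passed), and DESeq2 gave 0.0357. It rests partly on the series term, as series B libraries were higher in Bmp2 by 0.44 (SE 0.14, edgeR adjusted p 0.107). Series B held 3 Glenn excess libraries and 0 sham excess libraries. For Mgp, the log2 change of the excess diet exceeded that of the control diet by 0.70 (SE 0.23, 95% interval 0.22 to 1.17, edgeR adjusted p 0.392). The series term enters this difference too, as the fitted log2 difference of series B from series A was -0.27 for Mgp (SE 0.13, edgeR adjusted p 0.353). The remaining 7 genes had an unadjusted p above 0.05 in the interaction test.

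Among genes outside the 10, the profiles closest to those with the smallest adjusted p were sought over the 30 libraries as the root mean square distance of centred log2(CPM + 1) values, among 12707 genes. Closest to Mgp were Fxyd5 (distance 0.20) and Cpe (0.26), which encodes carboxypeptidase E; Fxyd5 went from 31.8 to 90.1 CPM and Cpe from 21.5 to 65.5 CPM with Glenn surgery (means, n = 15 each). Closest to Bmp6 were Abca7 (0.14), from 53.5 to 30.1 CPM, and Atp13a2 (0.15), from 83.3 to 51.5 CPM. Closest to Fst were Samd11 (0.26) and Hps6 (0.30). A flat profile would lie at 0.86 from Mgp, 0.46 from Bmp6 and 0.53 from Fst.

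The rest of the pathway was read from lists grouped by role, averaged over diets. In this contrast 48.2% of all genes changed, and sham and Glenn libraries did not overlap for 5.83%. Of 15 tested other ligands of the family 6 rose and 1 fell, a share near that of all genes. The 4 named by the rule were Gdf1, from 9.16 to 19.2 CPM with no overlap, and 3 genes of low level, Inhba (the activin A subunit that follistatin binds) from 0.38 to 1.82, Bmp15 from 0.16 to 1.10 and Gdf10 from 0.18 to 0.52 CPM (means, n = 15 each). The call of Gdf10 did not hold in series A (1.33, edgeR adjusted p 0.0777) nor with RT1-CE16-low libraries (1.47, edgeR adjusted p 0.125). Gdf1 shares a transcript with Cers1, so its reads are uncertain. Gdf2, which encodes BMP9, was at 2.18 and 1.89 CPM (edgeR adjusted p 0.468) and Bmp10 at 0.094 and 0.12 CPM (0.738).

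Of 14 tested other antagonists and modulators 7 rose and 3 fell. Noggin (Nog), the classical antagonist of BMP2 and BMP4, ranged from 2.86 to 5.07 CPM after sham and from 0.54 to 1.80 CPM after Glenn surgery. The groups did not overlap, as for 5.83% of all genes, and Nog fell by 1.96 on the log2 scale (SE 0.15, edgeR adjusted p 4.39e-12). Nbl1, an antagonist of the gremlin family, rose from 56.8 to 121 CPM, and Kcp, a chordin-like protein that enhances BMP signals, from 1.23 to 6.29 CPM, both with no overlap (by 1.08 with an SE of 0.07 and by 2.34 with an SE of 0.21 on the log2 scale, edgeR adjusted p 8.91e-13 and 1.98e-10). Sost was low and fell from 0.52 to 0.050 CPM (-3.41, SE 0.56, edgeR adjusted p 8.28e-06). The secreted side thus held named antagonists and modulators that fell (Nog, Fst, Sost) and others that rose (Mgp, Bmper, Twsg1, Nbl1, Kcp).

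Of 5 tested proteases that free or process BMPs, 3 rose (Bmp1, Furin and Pcsk5) and 0 fell. Of 13 receptors and coreceptors 8 fell and 3 rose. Bmpr2 ranged from 558 to 809 CPM after sham and from 186 to 322 CPM after Glenn surgery (log2 change -1.30, SE 0.06, edgeR adjusted p 7.92e-17), Eng and Acvrl1 fell by 1.45 and 1.39, and Acvr1c, at under 1 CPM, fell by 1.13. The call of Acvr1c (edgeR adjusted p 0.0349) did not hold in series A (-1.29, edgeR adjusted p 0.105), among RT1-CE16-low libraries (-1.52, 0.12) or with library totals alone (-1.05, 0.0512). Nor did it hold without any 1 of sham control replicate 5, Glenn control replicate 3, sham deficient replicate 3, Glenn deficient replicates 2 and 3, sham excess replicates 3 and 5 and Glenn excess replicates 1 and 4 (-1.12 to -1.02, edgeR adjusted p 0.0511 to 0.0662). The receptor list had 7 calls rather than 11 among RT1-CE16-low libraries. Bmpr1a and Acvr1, type I receptors outside the ALK1 branch, rose slightly (0.28, SE 0.09, and 0.16, SE 0.05, edgeR adjusted p 0.00697 and 0.0117). They were named after their values were seen, and the type II receptor Bmpr2 fell. Of 11 signal transducers and inhibitors 6 fell and 2 rose, with Smad6, Smad7 and Smurf2 lower (-2.90, -1.94 and -1.04) and Smad1 higher (1.89). Of 11 BMP target genes 5 fell and 2 rose, led by Tmem100, from 2350 to 483 CPM, and Id1, from 225 to 85.2 CPM (means, n = 15 each; log2 changes -2.28 and -1.43). The medians of these lists were 0.29 (ligands), 0.20 (antagonists), 0.13 (proteases), -0.22 (receptors), -0.40 (transducers) and -0.32 (targets).

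**Figure D5:**
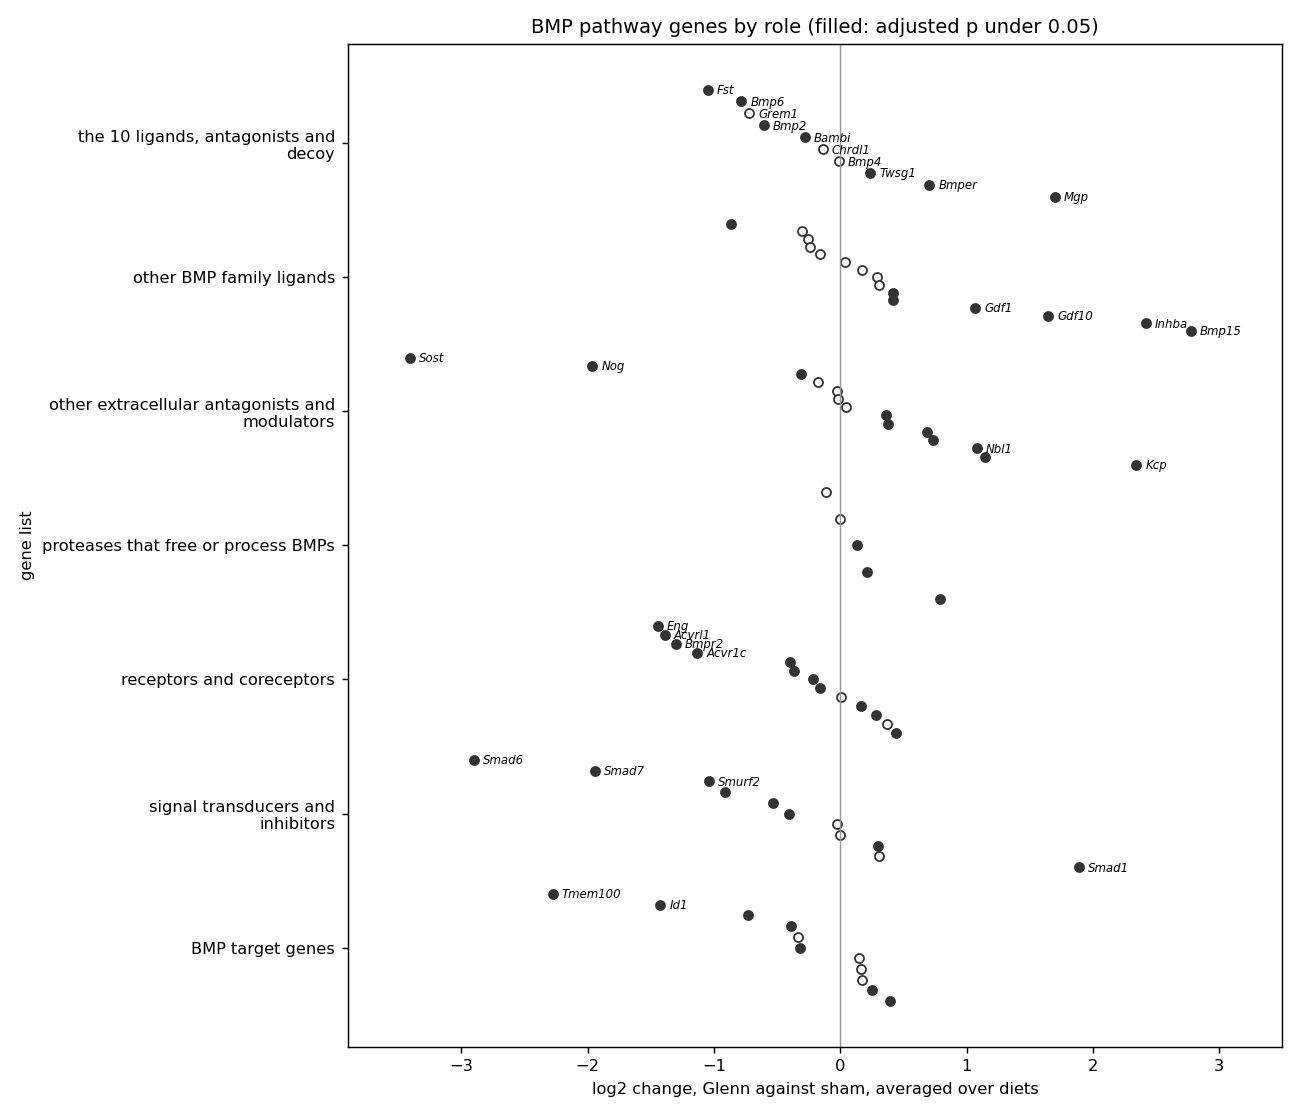
Log2 change with Glenn surgery averaged over diets (x axis) for the 10 genes and every tested gene of the other BMP lists (y axis, by role; vertical spread within a list only separates points); filled points have an adjusted p under 0.05. Every list holds points on both sides of 0, from -3.41 for Sost to 2.78 for Bmp15, and Smad6 (-2.90) and Smad1 (1.89) are the ends of the transducer list.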

How the data were processed

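RNA libraries were made with a SMART-Seq v4 ultra-low-input kit, per the labels' protocols. The authors deposited estimated counts per gene; the submitters' processing notes name FastQC, Trim Galore, Picard, STAR and Salmon with mRatBN7.2 (rn7), and versions, annotation release and strandedness are not given in the sources used here. Of the values, 13.6% were not whole, and counts were rounded. All 30 sample columns were used. In edgeR 4.0.16, low genes were dropped with filterByExpr (count of 10, total of 15), and TMM factors came to 0.938 to 1.06. The quasi-likelihood model (glmQLFit, robust, and glmQLFTest) held 6 group means and the library series. P-values were adjusted by Benjamini-Hochberg over 16171 genes. Each SE was taken as the size of the log2 change over the root of F.

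Within groups, 60 pairs of libraries had chi-square per degree of freedom of 21.2 to 126, far above sampling noise. Data for the averaged contrast were simulated over 16171 genes. In these, edgeR recovered 94 of 100 genes changed by a log2 of 1 and 98 of 100 changed by 2, with 12 false calls. DESeq2 made 34 false calls. The changed genes had a mean of at least 1 CPM and rose and fell equally often, with no series or RT1-CE16 effect simulated. In the measured data 48.2% of genes changed, so these rates need not carry over, and they do not cover genes as low as Grem1. Alternatives were DESeq2 1.42.0, limma 3.58.1 (voom with quality weights), other scalings, no filter, other terms, subsets of libraries, a replicate block and leaving out each library, in R 4.3.3; figures used matplotlib 3.10.9. RT1-CE16 was called high above 100 CPM and libraries male above 10 CPM of Ddx3y. Named were all 10 genes, up to 4 genes per pathway list called with a log2 change of at least 1, and the 2 nearest profiles for 3 genes; other genes were named as markers or after their values were seen. The genes, lists and tests were chosen with earlier results of these data known.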

Additional observations from a re-analysis of the deposited data

Results flagged for a closer look

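Among 60 sets of 5 libraries (10 genes in 6 groups), 3 held a library far from the other 4, as many as the 3 that chance gives at about 1 in 20. The first number in brackets is the distance to the next library divided by the group's range. Bmp2 was high in sham excess replicate 1 (0.743; 26.8 against 19.4 to 21.3 CPM). Without it, the log2 difference of Bmp2 between excess and control after sham was 0.50 in place of 0.59. Chrdl1 was high in sham excess replicate 5 (0.764; 12.8 against 4.03 to 6.09 CPM), a library with low RT1-CE16. Grem1 was high in Glenn excess replicate 3 (0.912; 0.267 against 0 to 0.0236 CPM), which rests on 9 counts.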

How the results depend on the processing

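The averaged count of 7 changed genes was 5 to 7 in every alternative run, and 7 without any 1 library. Leaving out 1 library gave 3 to 4 on the control diet, 3 to 5 on the deficient diet and 3 to 6 on the excess diet, where the lowest count was without Glenn excess replicate 2. For excess against control after sham, the count of 0 became 2 with DESeq2 and 1 with limma voom. With the replicate block 4 genes changed on each diet and 7 on average, and Fst on the excess diet (-0.85, edgeR adjusted p 0.077) was the 1 call of the 10 genes lost; among the pathway genes named, Acvr1c lost its call (-0.86, edgeR adjusted p 0.123). The labels give no meaning to the numbers: the deviations of same-numbered sham and Glenn libraries correlated above 0.1 in 10 of 15 pairs (-0.264 to 0.371), and 6 of 15 sham libraries correlated best with their own number. The numbers also went with other differences between libraries. In every group replicate 1 was RT1-CE16-low and male and replicate 2 was RT1-CE16-low and female, and series B held only replicates 3 to 5. Only group means were taken off before correlating, so pairing cannot be told apart from sex, RT1-CE16 level or series. Mgp and Bmp6 kept call and direction on every diet in every alternative that could be fitted.

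Reversals were limited to values that did not pass the threshold before or after, and the cause was not tested. Bmp4 on the control diet reversed when RT1-CE16 was low (-0.086), on the deficient diet in a fit of its 2 groups (-0.0031) and among RT1-CE16-high libraries (-0.024), and on average with DESeq2 size factors (0.0014), library totals (0.060), DESeq2 (0.0014) and the replicate block (0.0012). Chrdl1 reversed on the control diet with the RT1-CE16 term (0.018), that term with sex (0.0055) and where RT1-CE16 was low (0.022) or high (0.035). It did so on the deficient diet in series A (0.016) and RT1-CE16-low libraries (0.013), on the excess diet with no series term (0.88), library totals (0.012), limma voom (0.24) and the replicate block (0.39), and on average with no series term (0.064). Bmp2 on the control diet was 0.017 among RT1-CE16-high libraries, and Grem1 on average 0.30 in series A and 0.16 among RT1-CE16-low libraries. Without 1 library, Bmp4 ranged from -0.044 to 0.017 on average and from -0.045 to 0.084 on the deficient diet, and Chrdl1 from -0.18 to 0.34 on the excess diet. The fit within RT1-CE16-high libraries was chosen after seeing the data, and it gives no value for the excess diet. The averaged and interaction contrasts have no fit of fewer groups. Low counts limit Grem1.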
